A study of Drosophila melanogaster with 2 samples.

Results

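The peaks described here were called for tagged Ssrp, a subunit of the histone chaperone FACT. They lie in the pericentromeric ends of the Drosophila chromosome arms and on the small chromosome 4. They were chosen by position alone: the summit of a peak of the pooled list had to lie on the centromere-proximal side of 22.0 Mb on 2L, 22.9 Mb on 3L, 4.5 Mb on 3R or 22.0 Mb on X, or anywhere on chromosome 4 (dm6 assembly). This took 225 of the 30000 pooled peaks, 76 on chromosome 4 and 149 pericentromeric, of which 22 were on 2L, 25 on 3L, 64 on 3R and 38 on X. The rule names no pericentromeric stretch of 2R, and the pooled list held 0 peaks on Y. Of the 225 members, 32 were also in the authors' stricter list, which keeps peaks by their irreproducible discovery rate (IDR, a filter on how far replicate rankings hold). That is 14.2% (95% Wilson interval 10.3 to 19.4%), beside 18.1% of all pooled peaks.

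Per the labels, the embryos came from a transgenic line with GFP joined to the C-terminal end of Ssrp, and the tagged protein was precipitated with an antibody against GFP before sequencing (ChIP-seq). Both samples were whole embryos of mixed sex, 0 to 16 h old, and form 1 group of 2 biological replicates, with chromatin sheared by sonication to a stated size range of 200 to 800. All cell types of the embryo were pooled, neither the promoter that drives the fusion nor the presence of untagged Ssrp is given in the sources used here, and control libraries were not analysed here.

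FACT loosens and rebuilds nucleosomes as polymerases pass, so it is known chiefly from transcribed genes. Pericentromeric DNA is packed as heterochromatin, rich in transposable elements and bound by the protein HP1, yet it holds essential genes that are transcribed. Chromosome 4 mixes heterochromatic packing with a gene density near that of the arms, and its genes are bound by the chromosome-specific protein POF.

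The sequences around 10 upstream promoter summits are shown as examples of the member promoters of chromosome 4, the 3R cluster and the deep part of 3L, and stronger ones on 3R and X are described by their values only. PlexA has the highest signal of all members, gw, Rnf11 and Dyrk3 are IDR members of chromosome 4, and RpS3A is a chromosome 4 promoter just below the IDR list. Suv3, DhpD and tub lie in the 3R cluster, and MED21 and ND-AGGG lie deep inside 3L. Each is read from the RefSeq genome (assembly release 6, dm6) 5′ to 3′ on the strand of the gene, up to 75 bases on either side of the summit and shortened where an exon begins. Capitals mark, on either strand, TATCGATA (the element of the promoter factor DREF), the shorter CGATA (the insulator protein BEAF-32), GGTCACACT (motif 1 of housekeeping promoters), GAGAG (the GAGA factor), CAGGTAG (the early activator Zelda) and TATAAA (the core of a TATA box).
PlexA, chr4:1027211-1027361, minus strand, summit 185 bp upstream: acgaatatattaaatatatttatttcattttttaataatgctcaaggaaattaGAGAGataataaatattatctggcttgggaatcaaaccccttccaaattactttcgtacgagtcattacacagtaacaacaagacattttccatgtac
gw, chr4:659988-660138, minus strand, summit 80 bp upstream: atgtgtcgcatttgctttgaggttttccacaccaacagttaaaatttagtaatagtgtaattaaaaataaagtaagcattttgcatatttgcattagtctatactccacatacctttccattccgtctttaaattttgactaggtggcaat
Rnf11, chr4:314683-314833, plus strand, summit 165 bp upstream: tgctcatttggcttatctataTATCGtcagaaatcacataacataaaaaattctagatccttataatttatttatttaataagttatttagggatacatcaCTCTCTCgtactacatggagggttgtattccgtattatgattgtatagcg
Dyrk3, chr4:1230714-1230820, minus strand, summit 32 bp upstream: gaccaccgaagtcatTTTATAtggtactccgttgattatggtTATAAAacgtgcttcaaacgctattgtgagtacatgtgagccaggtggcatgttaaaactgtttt
RpS3A, chr4:67225-67375, minus strand, summit 93 bp upstream: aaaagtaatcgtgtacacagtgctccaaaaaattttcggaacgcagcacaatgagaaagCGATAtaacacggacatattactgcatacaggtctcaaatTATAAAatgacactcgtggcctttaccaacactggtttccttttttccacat
Suv3, chr3R:4311217-4311367, plus strand, summit 263 bp upstream: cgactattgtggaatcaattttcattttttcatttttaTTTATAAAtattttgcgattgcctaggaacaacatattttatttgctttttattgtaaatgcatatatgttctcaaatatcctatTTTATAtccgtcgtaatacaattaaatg
DhpD, chr3R:4229285-4229435, minus strand, summit 122 bp upstream: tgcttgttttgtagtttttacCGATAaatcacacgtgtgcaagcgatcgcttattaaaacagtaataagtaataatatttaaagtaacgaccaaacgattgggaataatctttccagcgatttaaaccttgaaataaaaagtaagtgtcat
tub, chr3R:4387598-4387741, plus strand, summit 69 bp upstream: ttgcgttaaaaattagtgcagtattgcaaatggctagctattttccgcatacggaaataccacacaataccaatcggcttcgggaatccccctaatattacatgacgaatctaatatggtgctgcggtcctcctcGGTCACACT
MED21, chr3L:25115947-25116052, minus strand, summit 31 bp upstream: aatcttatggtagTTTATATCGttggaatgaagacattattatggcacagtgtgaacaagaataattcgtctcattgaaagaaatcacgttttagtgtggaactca
ND-AGGG, chr3L:24976026-24976176, plus strand, summit 153 bp upstream: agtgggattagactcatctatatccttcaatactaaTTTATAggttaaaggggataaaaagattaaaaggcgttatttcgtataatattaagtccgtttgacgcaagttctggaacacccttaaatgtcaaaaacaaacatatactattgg
The Suv3 window is the most AT-rich of the 10, with a GC content of 23.8%, followed by PlexA with 28.5%, and tub is the least, with 43.8%. The MED21, Rnf11, RpS3A and DhpD windows hold CGATA, and the tub window ends on GGTCACACT. A match of letters is a description and not a measured binding site.

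Signal here means the number that the authors' peak caller gave a peak. Each list has its own scale, so signals are compared only inside 1 list. The replicate lists and the pooled list hold 30000 peaks each, and ranks in them are given side by side. Read numbers are not in the files, so the depth of either replicate is unknown. The IDR list held the 5445 strongest pooled peaks, so membership is a matter of signal: the weakest IDR peak had a signal of 157, RpL10 entered with 160, and its neighbour in the same gene missed with 155. Members that overlap share sequence: 54 of the 225 overlapped another member, and merging them left 196 separate sites. The series has a single group, so no contrast was tested, and every interval below reflects how many peaks or genes were counted and nothing else.

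Ssrp peaks were sparse in these regions, with similar total numbers in both replicates. The regions span 14.1 Mb and held 15.9 pooled peaks per Mb, while the rest of 2L, 3L, 3R and X together with all of 2R held 249 per Mb. The replicate 1 list had 249 peaks in the regions and the replicate 2 list had 256, a density of 17.9 ± 0.351 per Mb (SD, n = 2) beside 248 per Mb elsewhere in each list. Each list holds 30000 peaks, so near-equal densities elsewhere follow from list size and do not measure agreement. The counts inside the regions could still differ. The small SD there belongs to the total over the regions only, since the parts differed in opposite directions. Replicates 1 and 2 had 107 and 71 peaks on chromosome 4 (66.0 ± 18.9 per Mb). In the pericentromeric stretches they had 142 and 185 (12.8 ± 2.38 per Mb). The gap between these regions and the rest was far wider than the spread between replicates.

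Repeated sequence bears on these densities, since reads that fit several places are commonly dropped before peaks are called, and the mapping rule of the authors is not given in the sources used here. Only 44.9% of the bases of the regions began a 32-base word that occurs once in the assembly, beside 92.3% of the rest. Per Mb of such unique sequence the regions held 35.5 peaks and the rest 269, and for the IDR list the values were 5.05 and 48.9. The scarcity was therefore present on both scales, and smaller on the unique scale. The part of mapping in the remaining gap was not tested.

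Chromosome 4 was the densest of the regions. It is unique over 83.3% of its bases and held 67.7 pooled peaks per unique Mb, against 28.6 for the pericentromeric stretches together. Among those the density was 56.5 on X, 37.7 on 3R, 29.5 on 2L and 11.9 on 3L, while the rest of the same arms lay between 246 on 2L and 289 on 3L. In number of peaks the replicates differed most on chromosome 4, with 107 peaks in replicate 1 and 71 in replicate 2 (66.0 ± 18.9 per Mb, SD, n = 2). They also differed on 3L, with 23 and 42 peaks, and on X, with 30 and 48, and little on 3R, with 67 and 64. In the IDR list chromosome 4 had 8.01 peaks per unique Mb, X 10.4, 3R 7.65, 3L 1.43 and 2L 0 from its 22 members.

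**Figure D1:**
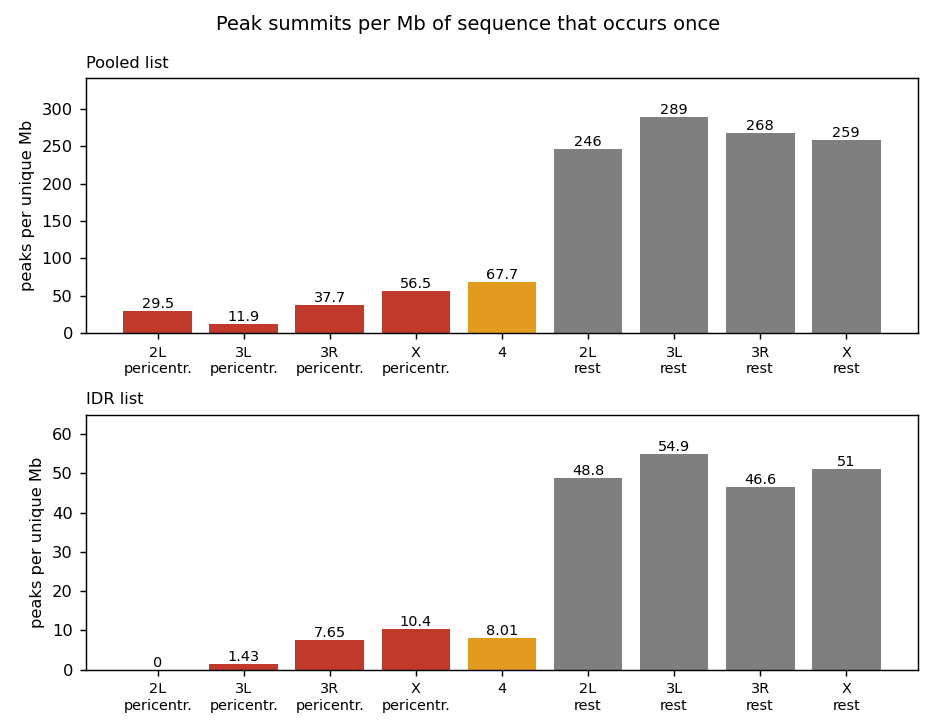
Bars give pooled peaks (top) and IDR peaks (bottom) per Mb of sequence whose 32-base words occur once, for the 4 pericentromeric stretches, chromosome 4 and the rest of each arm, as single counts with no error bar. All 5 member regions stand at 67.7 or below in the pooled list, and the rest of each arm at 246 or above.

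Most pericentromeric peaks lay in the outer part of the stretches, although not at the border itself on every arm: the first member was 121 kb inside on 2L and 444 kb inside on X. The outermost 0.5 Mb of the 4 stretches held 108 of the 149 pericentromeric members and 17 of their 23 IDR members, or 92.4 peaks per unique Mb. The remaining 10.8 Mb held 41 peaks and 6 IDR members, or 10.1 per unique Mb. The first 0.5 Mb outside the borders held 264 peaks, or 180 per unique Mb. Summed over the arms the density fell in steps across the border. It did so on 2L, 3L and 3R, while on X it was 127 per unique Mb just outside and 152 just inside, then 31.3 and 64.6 in the next steps of 0.5 Mb. Over the 4 arms together the outer steps lie in sequence that is more often unique: 73.2% outside, 58.4% just inside and 37.6% deeper.

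**Figure D2:**
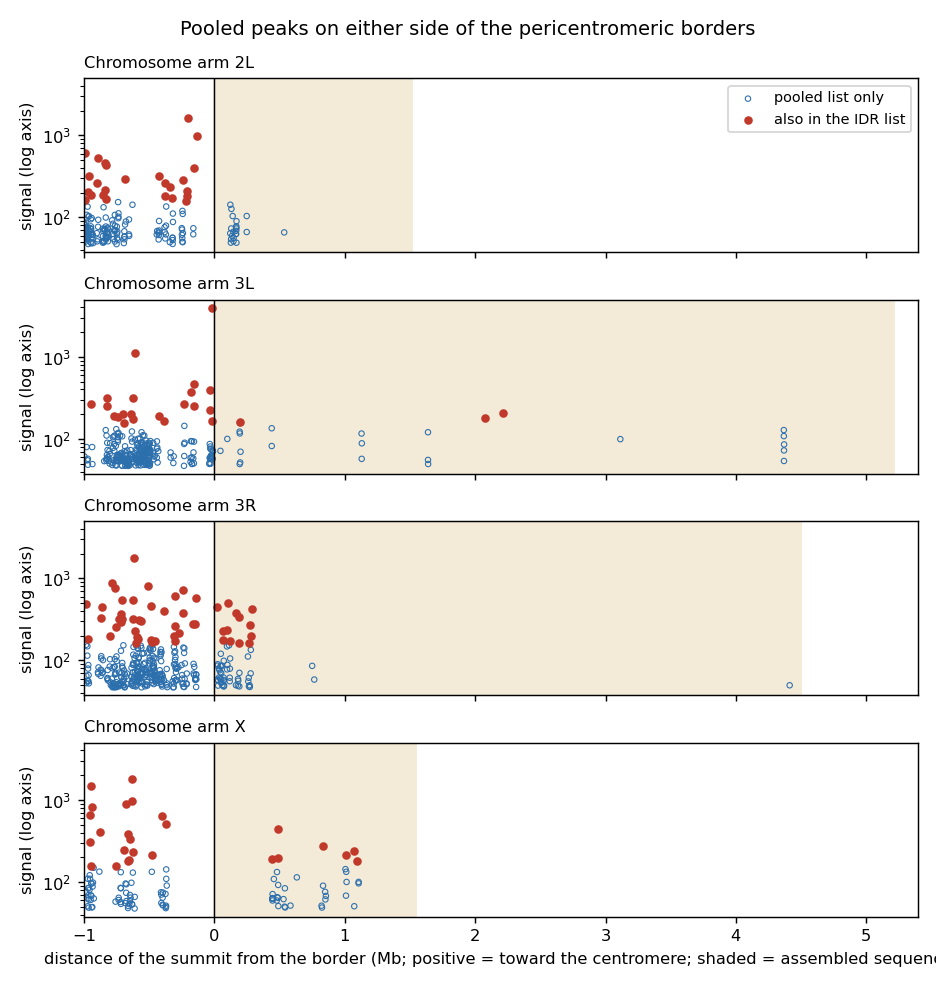
Each point is a pooled peak, with its distance from the border on the horizontal axis and its signal on a log axis, filled where it is also in the IDR list, and shading marks the assembled sequence inside each border. On 3R 61 of 64 members and all 13 IDR members lie within 0.5 Mb of the border, while on X and 3L members reach further in.

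The arms differed in how far members reached. On 3R, 61 of 64 members and 13 of 13 IDR members lay in the outermost 0.5 Mb, and on 2L 21 of 22 members did. A stretch of 3.65 Mb on 3R, from 87849 to 3734528, held no pooled summit, 0 summits of replicate 1 and 1 of replicate 2. It contains 5 protein-coding genes, among them the very long genes Myo81F and Pzl. On 3L the longest empty stretch was 1.25 Mb and on 2L 0.979 Mb, the latter with 0 replicate 1 summits and 5 of replicate 2. Chromosome 4 had no gap wider than 0.244 Mb, but that gap holds 17 whole protein-coding genes. The longest gaps of 3L and 2L hold 5 and 13 whole, and that of X, 0.444 Mb, holds 21.

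The peaks nearest the borders ranged from weak to strong. Just inside, the nearest were a CG31523 promoter peak on 3R with a signal of 58.4, 20.4 kb in, followed by the CG31523 intron peak with 453, 21.7 kb in, and a Mes2 promoter peak on 3L with 71.5, 46.0 kb in. On 2L the first was a promoter of a noncoding RNA with 63.9, 121 kb in, followed by CG3651 with 143. On X the first lay 444 kb in, beside CG14621, with 62.2, next to a CG14621 promoter peak with 192. Just outside, the nearest 3L peaks lay in slif, with 70.0 and 71.2, and those of 3R had 58.9 and 66.5. Outside 2L the nearest had 969 and 396, and outside X 90.2 and 512 at the piRNA locus flamenco.

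The pair of strongest members both lay on chromosome 4. The peak 185 bp upstream of PlexA, the receptor for semaphorins in axon guidance, spans chr4:1027124-1027459 and had a pooled signal of 1127, rank 317 of 30000. It had a signal of 468 and rank 426 in replicate 1, and 662 and rank 250 in replicate 2. Its partner in strength, chr4:1113162-1113467, had a pooled signal of 1119 and rank 322, with rank 355 in replicate 1 and 309 in replicate 2. It lies in an annotated 3′ UTR where Cals, which encodes the synaptic cadherin calsyntenin, overlaps sv, a Pax-family regulator of sensory organs. It is also the strongest member outside a promoter, and it was the only IDR member in a 3′ UTR.

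The other 7 IDR members of chromosome 4 had signals of 361 or below. The gene gw, whose protein works with Argonaute in microRNA silencing, had a pair of them. The peak 80 bp upstream of a gw start had a signal of 361, with 155 in replicate 1 and 225 in replicate 2. The second, 124 bp upstream of another gw start, had 209, with 111 and 102. Both gw peaks were thus found in both replicates. The peak between CG46466 and Slip1 had 228, with ranks 4157 and 3397 in replicates 1 and 2. The intron peak of Asator, a tau-tubulin kinase, had 220, with ranks 3626 and 4910. The Rnf11 promoter peak had 185, with ranks 5398 and 4965. These 3 sites were close in rank between replicates.

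The remaining pair of chromosome 4 IDR members was uneven between replicates. The intergenic peak 3873 bp upstream of zfh2, which encodes a homeodomain transcription factor, had a pooled signal of 207. It stood at rank 2234 with a signal of 165 in replicate 1, and at rank 12085 with 38.5 in replicate 2. The peak shared by Dyrk3 and Cadps, a regulator of secretory vesicle release, had 184, with rank 4974 in replicate 1 and no replicate 2 summit within 100 bp. Both ranked higher in replicate 1, the list that also held more chromosome 4 peaks.

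Several chromosome 4 genes held 4 or more summits. The body of zfh2 held 12 summits over 39065 bp, none of them in the IDR list. The highest of them had a signal of 97.3, at a start site. The gene of the lipid carrier apolpp held 7 and Zyx 4, again none in the IDR list. These genes overlap, and some summits are counted in both. Asator and Cals held 5 each, of which the 220 and the 1119 peak were IDR members. The highest chromosome 4 signal below the IDR list was 154, in a coding exon of ATPsynbeta, the catalytic subunit of ATP synthase, where neither replicate had a summit within 100 bp and a replicate 1 peak overlapped by at least 50% of each. The RpS3A promoter followed with 153, at rank 21423 in replicate 1 and 4422 in replicate 2. A peak 689 bp upstream of ey, the fly Pax6 gene, had 151, with rank 4574 in replicate 1 alone.

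On 3R the IDR members formed a cluster of 13 in the outermost 0.5 Mb. The strongest, 207 bp upstream of the antisense RNA CR45999, had a signal of 500 and ranks of 1464 and 1190 in replicates 1 and 2. An intron peak of CG31523 had 453, with ranks 1360 and 1683. An intron peak at CG14636, within the clathrin-uncoating gene aux, had 419, with ranks 2037 and 1506. The CG9776 promoter had 375, with ranks 2543 and 1816. These 4 held similar places in both replicates.

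The other 3R IDR members were 8 promoter peaks and 1 more intron site. Suv3, a mitochondrial RNA helicase gene, had overlapping peaks with signals of 341 and 161, the stronger also lying 345 bp from a start of the ESCRT gene Vps24. DhpD, of pteridine metabolism, had 270, CG9853 had 234, and the lipoyl transferase gene Lipt2 had 226. The translation initiation factor gene eIF3a had 180, Sfxn1-3 had 172 and the RNA helicase gene abs had 164. The second site near CG14636, in an aux intron, had 200. Replicate ranks ran apart for abs, 10856 and 4261, and for eIF3a, 3287 and 8216. Just below the IDR list stood tub, the Toll pathway adaptor, with 153 and ranks 6744 and 5339.

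On X the 7 IDR members lay from 444.4 to 1097.0 kb inside the border. A narrow peak of 101 bp, 354 bp upstream of l(1)G0196, had 441, with ranks of 1131 in replicate 1 and 2139 in replicate 2. Its width kept it from overlapping a replicate peak by 50% of each, although both replicates had a summit within 100 bp. A second l(1)G0196 peak, in a noncoding exon, had 194, and CG14621 had 192.

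Deeper than 0.5 Mb inside a border only 6 members were in the IDR list, all 6 at promoters. On X these were a site upstream of mir-2491 within fog and CG42346, with 276 and ranks of 5105 and 1879, and CG17167, with 239 and ranks of 4196 and 3136. An antisense RNA, CR45009, had 215, with ranks of 5297 and 3465. The gene su(f), which encodes a subunit of the mRNA cleavage stimulation factor, had 180. On 3L they were the Mediator subunit gene MED21 with 205 and the respiratory complex I gene ND-AGGG with 181. The last 3 had no replicate 1 summit within 100 bp and stood at ranks 8746, 3687 and 4425 in replicate 2. The deepest member cluster was on 3L at the ribosomal protein gene RpL15, 4367.3 kb inside the border, where the highest of its peaks had a signal of 128 and lay 93 bp inside the gene.

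Only weak peaks were found on 2L, where 0 of 22 members reached the IDR list (95% Wilson interval 0 to 14.9%). The strongest was the CG3651 promoter with 143, with ranks of 6212 and 7609 in the replicates. The CycK promoter, of a cyclin that pairs with transcription kinases, had 127, and RpL21 had 104. The gene of the zinc finger protein Clamp held 6 summits over 3424 bp, from 49.1 to 89.8, which ran from its start through its exons to its 3′ UTR. CG42748, which overlaps Clamp at its end and shares a summit with it there, held 8 over 35001 bp. CG31522 on 3R held 11 over 21469 bp. None of the summits of these 3 genes was in the IDR list.

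The signals of members were typical in the middle and short at the top. The median was 75.6 over members and 72.3 over all other pooled peaks, and the ratio of the member median to that of the whole list was 1.05 in replicate 1 and 1.04 in replicate 2. The upper quartile stood at 120 for members and 118 for others. Among IDR peaks the median was 217 for members and 293 for others. The highest deposited −log10 q value, 3.85, was reached by 5.78% of members (3.41 to 9.63%) and 11.9% of others. The value was 1.3 at a signal of 97.3, that of member 80 of 225 by signal. At the member median of 75.6 it was 0.795. Most members were thus called at −log10 q values below 1.3, and the weaker of them may not be sites of Ssrp.

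Summits of members lay more often at promoters than other summits. A promoter here is the 500 bp on either side of a transcription start. It held 103 of 225 member summits, 45.8% (39.4 to 52.3%), against 25% of other pooled summits. In the replicates the share was 42.8 ± 0.839% for members and 25 ± 1.32% for other peaks (SD, n = 2), a gap wider than the spread between replicates. It was 51.0% for pericentromeric members and 35.5% on chromosome 4, with intervals of 43.1 to 58.9% and 25.7 to 46.7% that overlap. Of the 32 IDR members 25 were at promoters, 78.1% (61.2 to 89.0%), against 40.4% of other IDR peaks.

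Introns were the class with fewer members. They held 53 member summits, 23.6% (18.5 to 29.5%), against 41.9% of the others, and 4 of 32 IDR members against 40.5%. Coding exons held 13.3% of members and 13% of others, and 3′ UTRs 5.33% and 4.77%. Intergenic summits were 15.8% on chromosome 4, 7.38% in the pericentromeric stretches and 13.3% elsewhere. Strength differed by class: 24.3% of promoter members were IDR members, 7.55% of intron members and none of the 30 coding exon members. Among other peaks the shares were 29.4%, 17.6% and 0.232%. Of the 23 intergenic members 1 was an IDR member, 4.35% (0.772 to 21.0%), against 22.8% of other intergenic peaks.

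**Figure D3:**
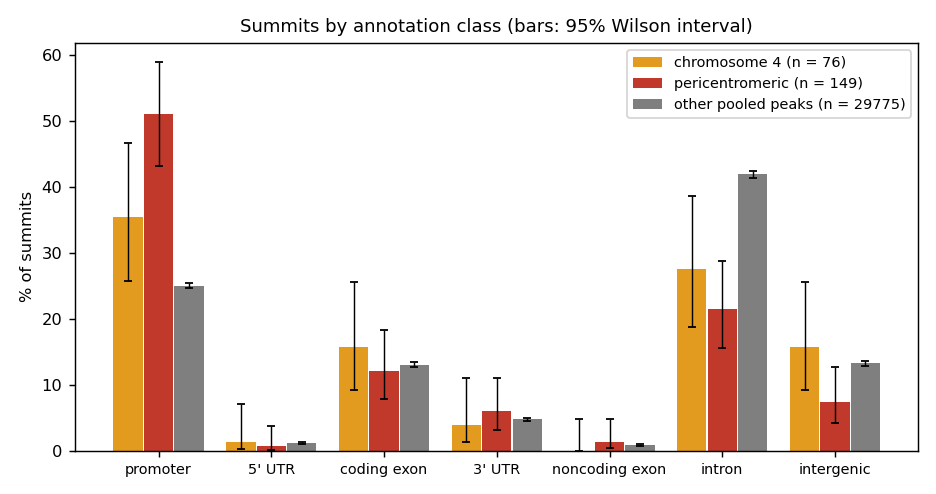
Bars give the percentage of summits in each annotation class for chromosome 4 members, pericentromeric members and all other pooled peaks, with 95% Wilson intervals for the counting of peaks. The promoter bars are 35.5%, 51.0% and 25%, and the intron bar is highest for other pooled peaks, at 41.9%.

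Promoters are scarce in these regions, and per unit of promoter sequence members were still fewer than elsewhere. Promoter windows made up 6.45% of the unique bases of the regions and 15.5% of those of the rest. Per unique Mb of promoter there were 252 summits in the regions, 198 on chromosome 4 and 279 in the pericentromeric stretches, against 434 in the rest. In introns the values were 17.8 and 285 and in intergenic sequence 10.6 and 157. Over the regions together the gap to the rest was thus narrower, in proportion, at promoters than in introns and intergenic sequence. The pericentromeric stretches had the same order, with 12.8 in introns and 5.42 in intergenic sequence. Chromosome 4 did not: its introns had 44.1 and its intergenic sequence 81.8. There the gap was narrower in intergenic sequence than at promoters by these counts. The intergenic value rests on 12 summits over 0.147 unique Mb. Some lay just outside the promoter window, such as 567 bp upstream of Asator and 689 bp upstream of ey. The order on chromosome 4 is thus uncertain.

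Within promoters most member summits lay upstream of the start, as other summits did. Among promoters with no opposite start within 1000 bp, the median member summit lay 43 bp upstream, against 86 bp for other promoter summits, and 25 of 65 summits, 38.5% (27.6 to 50.6%), were downstream, against 38.9% of other promoter summits. Among IDR members the median was 122 bp upstream with 3 of 12 downstream, against 183 bp and 17.8% for other IDR peaks. On chromosome 4 the median was 108 bp upstream.

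Counted by gene, starts in these regions carried a peak less often than those elsewhere. Of 282 protein-coding genes with a start in the regions 83 had a pooled summit at one, 29.4% (24.4 to 35.0%), beside 43.4% of all 13968 protein-coding genes. For the IDR list the count was 28, 9.93% (6.96 to 14%), beside 19.3%. The 3R stretch was close to all genes, with 27 of 64 genes, 42.2% (30.9 to 54.4%), and 13 IDR genes, 20.3%. Chromosome 4 had 21 of 80, 26.2% (17.9 to 36.8%), and X 19 of 59, 32.2% (21.7 to 44.9%). On 3L 11 of 42 genes had one, 26.2% (15.3 to 41.1%), and on 2L 5 of 37, 13.5% (5.91 to 28.0%). The 3R interval overlaps those of chromosome 4, X and 3L. Of the 78 genes deeper than 0.5 Mb inside a border 20 had a summit, 25.6% (17.3 to 36.3%).

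Genes of chromosome 4 were followed in 3 lists, beside shares of 43.4% of all protein-coding genes with a pooled summit at a start and 19.3% with an IDR summit. The transcription factor list had 18.2% and 0%, the neuronal, adhesion and signalling list 27.8% and 11.1%, and the housekeeping list, close to all genes in the pooled list, 44.4% and 11.1%. Of 11 transcription factor genes, pan, the Wnt pathway TCF factor, with 58.0 and zfh2 with 97.3 had a pooled summit at a start and none had an IDR summit. The regulators ci, of the Hedgehog pathway, and sv had summits only in the gene body, with 3 in ci. No summit lay inside or up to 500 bp from ey, toy, Sox102F, onecut, pho, dati and fuss. Of 18 neuronal, adhesion and signalling genes 5 had a pooled summit at a start. These were PlexA, Cadps, Zyx with 126, lgs, the Wnt cofactor Legless, with 117, and PlexB with 114, and PlexA and Cadps had an IDR summit. Of 9 housekeeping genes 4 had one: gw, RpS3A, ATPsynbeta with 132 at a peak that also lies upstream of CG11076, and Asator with 95.5. Only gw of these had an IDR summit at a start.

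Classical genes of heterochromatin were mostly without a peak. Of 19 listed genes in the regions 2 had a pooled summit at a start, 10.5%, beside 43.4% of all protein-coding genes: su(f), which was in the IDR list, and RpL15. The ribosomal protein gene RpL5 on 2L had 1 summit in a coding exon, with a signal of 65.6. The genes lt, cta, Dbp80, Parp1, nvd, vtd, AGO3, Snap25, Set1, scro, Pzl, Myo81F, Alg-2, spok and FASN3 and, on chromosome 4, ND-49 had no pooled summit in the gene or within 500 bp. These include genes of vesicle traffic (lt), gastrulation (cta), cohesin (vtd), piRNA silencing (AGO3) and ecdysone synthesis (nvd, spok). A missing peak says only that none was called at this depth.

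Replicate support for members was close to that of other peaks but uneven between regions. Of the 225 members 99 overlapped a peak of each replicate by at least 50% of both, 44.0% (37.7 to 50.5%), against 48.8% of other pooled peaks, and 17 had no such partner in either. On chromosome 4, 88.2% (79.0 to 93.6%) had a partner in replicate 1 and 56.6% (45.4 to 67.1%) in replicate 2. In the pericentromeric stretches the shares were 67.1% and 65.1%, and for other peaks 74.9% and 68.4%. Of the 32 IDR members 28 had a summit within 100 bp in both replicates, 87.5% (71.9 to 95%), against 95.1% of other IDR peaks. The exceptions were Dyrk3 in replicate 2 and MED21, ND-AGGG and su(f) in replicate 1.

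**Figure D4:**
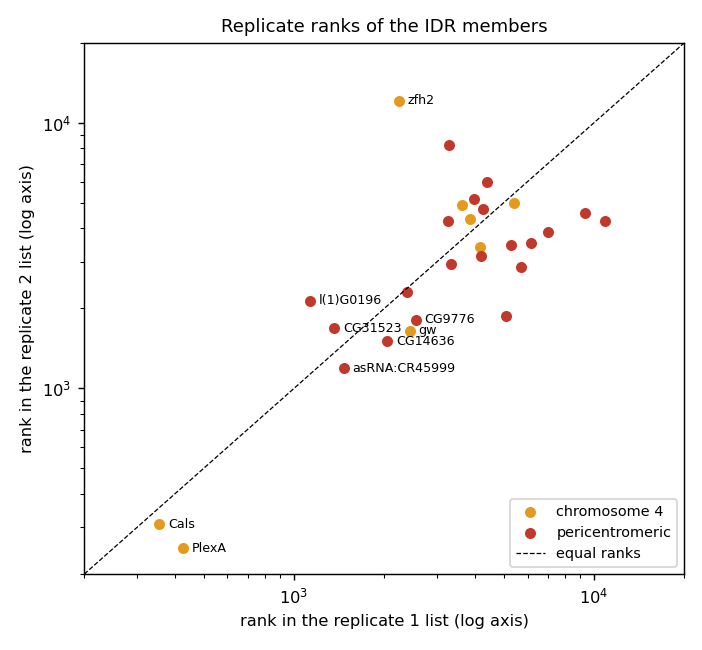
Points are the 28 IDR members with a summit within 100 bp in both lists, placed by their rank in replicate 1 and in replicate 2 on log axes, with a dashed line of equal ranks. PlexA and Cals stand at ranks of 250 to 426 in both, and the zfh2 site lies farthest from the line, at 2234 and 12085.

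Base composition at summits differed between the regions. GC content over the summit and 50 bp on either side averaged 35.6 ± 8.76% on chromosome 4 and 34.0 ± 6.84% in flanks centred 600 bp away (SD over 76 peaks). In pericentromeric members the summit was lower than the flanks, 37.6 ± 10.5% and 41.4 ± 7.56%, as in other pooled peaks, 39.3 ± 11.6% and 43.1 ± 7.80%. The difference averaged 1.54 ± 10.5 percentage points on chromosome 4, -3.71 ± 11.5 in the pericentromeric members and -3.84 ± 13.2 elsewhere (SD over peaks). Among promoter peaks alone it was -1.8 ± 9.96 in the 27 on chromosome 4, -5.33 in pericentromeric members and -6.97 elsewhere. Like all chromosome 4 members together, the 22 members on 2L averaged more GC at the summit, 39.3 ± 11.4% (SD), than in flanks, 37.2 ± 6.96%. The difference was 2.14 ± 10.5 there, while 3L, 3R and X had -4.57, -4.70 and -4.87. In the replicate lists the mean difference was 0.461 ± 0.206 on chromosome 4 and -3.70 ± 0.553 at peaks outside the regions (SD, n = 2), and the values did not overlap.

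The contrast was wider among IDR peaks. There the mean of summit minus flanks was 1.38 points in the 9 chromosome 4 members, -9.73 in the 23 pericentromeric members and -13.2 in other IDR peaks. Chromosome 4 flanks of 31.6 ± 1.55% were already close to the 30 ± 7.95% that summits of other IDR peaks had. The flanking GC content thus differed and the summit GC content was near that of IDR peaks elsewhere.

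**Figure D5:**
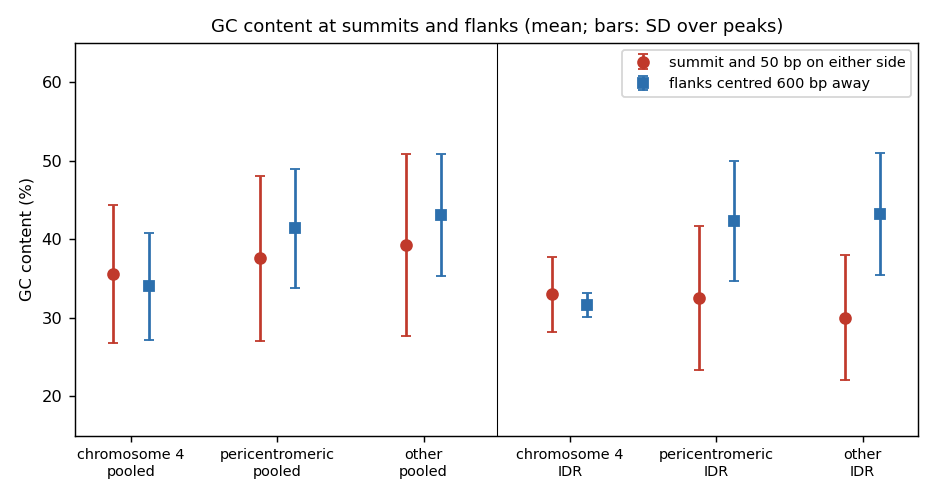
Circles give mean GC content at the summit and 50 bp on either side, squares the mean in flanks centred 600 bp away, with bars for the SD over peaks, for pooled peaks (left) and IDR peaks (right). Summit and flank means nearly coincide on chromosome 4, while the summit is lower in pericentromeric members and in other peaks.

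Short sequence elements were counted in the 300 bp centred on each summit, on either strand. CGATA was present in 48.0% of members (41.6 to 54.5%) against 31.7% of all pooled peaks, and TATAAA in 50.7% (44.2 to 57.1%) against 36.7%. Both words hold more A and T than G and C. Members averaged 37.0% GC at the summit, against 39.3% for other pooled peaks, and were more often at promoters. Whether composition or promoter share bears on these counts was not tested. Among promoter members CGATA was in 49.5% (40.1 to 59.0%) against 40.1% of other promoter peaks, and TATAAA in 57.3% (47.6 to 66.4%) against 41.6%. The longer TATCGATA, which contains CGATA, was in 5.83% of promoter members and 6.21% of others. GGTCACACT was in 4.85% and 3.54%.

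The other elements were counted in the same windows. GAGAG was in 22.7% of members (17.7 to 28.6%) against 29.5% of all pooled peaks. The repeat CACACA was in 16.0% (11.8 to 21.4%) against 23.0%, and in 10.5% on chromosome 4. CAGGTAG was in 2 members, both on chromosome 4, or 0.889% against 1.58%. A run of AAAAAAAA was in 28.9% of chromosome 4 members, 16.8% of pericentromeric members and 19.0% of all pooled peaks.

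Few members lay in transposable elements. The annotation gives 15.9% of the bases of the regions to such elements, and 24.8% on chromosome 4, while 12 member summits lay in one, 5.33% (3.08 to 9.09%), against 0.326% of other peaks and 4.75% of the bases elsewhere. Of these 12, 8 were on chromosome 4, and 7 lay in INE-1, a short and old element common there. Only 1 was an IDR member, at CG14636 in a 1360 fragment of 36 bp, with a signal of 200. The strongest of the others were an intergenic chromosome 4 site with 146, where a 1360 copy and an INE-1 copy overlap, the stnB promoter with 143 and a ci intron site with 131.

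Nearly all members stood in sequence that can be placed uniquely. In 217 of 225, 96.4% (93.1 to 98.2%), at least 90% of 32-base words occur once in the assembly, against 99.4% of other peaks. The lowest share in a member was 40.5%. Among the 12 summits in transposable elements the site with 146 had 74.8% of unique words and the ci site with 131 had 88.2%, and whether reads of other copies add to them was not tested.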

How the data were processed

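ChIP-seq of Ssrp-GFP gave 4 peak lists on dm6 that the authors deposited: 1 per replicate, 1 from both replicates pooled and the IDR list. Per the text deposited with the samples, each replicate list comes from that replicate's alignment and 1 further alignment that all lists share, and the IDR list from the replicate and pooled lists. Neither what that alignment is, nor the aligner, peak caller or IDR threshold, is given in the sources used here. Signal is the authors' peak-caller value and differs in scale between lists. The −log10 of the q-value was set by the authors' caller and has a ceiling. Neither was rescaled. Replicates share the line and the protocol, so their spread may be partly technical. Signal is not a read count, and depth per sample is unknown.

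Summits were placed by peak start plus the deposited offset, then classed by the Ensembl annotation, release 115, promoters (500 bp) first, then UTRs and coding exons, other exons, introns and the rest (5′ UTR before coding exon before 3′ UTR). Words of 32 bases were counted over the RefSeq assembly, release 6, on both strands, and that step, distances and peak matching were tested on simulated data. A replicate partner overlapped at least 50% of each peak or had its summit within 100 bp, as stated. Python 3.11.15, numpy 2.4.6, pandas 2.3.3 and matplotlib 3.10.9 were used.

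Members and lists were chosen with earlier results of these data known, and no test was made. Genes were named by rule: those of the 20 strongest members, IDR members of chromosome 4, up to 3 of each list by signal, the 2 peaks nearest each border on either side, and the strongest of each class and region. Other IDR members, genes with many summits, genes of listed sets without peaks and deep sites were named after their values were seen. Of 66 listed symbols, Lin29, Arf102F, bip2, Thd1 and Parp matched no gene symbol of the annotation, and Haspin, SPoCk, sip2 and FASN2 lay outside the regions. A gene annotated under another symbol is thus missing from its list, unless that symbol was listed too, as Parp1 was. Alternatives were the borders, each replicate list alone, the number of peaks, the matching rule, the promoter window, the GC window and the word rule.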

Additional observations from a re-analysis of the deposited data

How the results depend on the processing

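Borders moved 0.5 Mb outward gave 489 members, 72 of them in the IDR list, at 30.3 per Mb with 35.6% at promoters. Moved inward they gave 117 members, 15 of them in the IDR list, at 9.66 per Mb with 41.0% at promoters. The IDR share was then 14.7% and 12.8%, beside 14.2%. Chromosome 4 has no border, so its 76 members stayed in each set. With borders moved inward the pericentromeric members alone numbered 41, of which 6 were in the IDR list (14.6%). They stood at 3.81 per Mb, with 51.2% at promoters. Among the strongest 10890 pooled peaks there were 88 members, and 9 members were among the 2722 strongest IDR peaks. Each replicate list alone gave 249 and 256 members, a promoter share of 42.2% to 43.4%, and a ratio of the member median signal to that of the list of 1.04 to 1.05, where the pooled list had 1.04. Promoter windows of 250 and 1000 bp gave 33.8% and 63.1%. The median GC content of 35.6% became 37.3% with 25 bp and 35.8% with 100 bp on either side. The share of members in unique sequence, 96.4%, was 99.6% with words of 50 bases, 99.6% where 50% of words had to occur once and 88.9% where 99% had to. Per Mb of unique sequence, a scale chosen after seeing the data, the members numbered 35.5. Also chosen after seeing the data, merging overlaps left 196 members, and 75 of the members without overlap were in both replicates. Matching rules gave 88 to 125 members in both replicates, beside 99, and 32 IDR members under each rule for matching the lists. Gene rules gave 67 to 100 genes, beside 83. The causes were not tested. No paired analysis was possible because the series has 1 group. Depth is unknown, so a region without a peak may hold sites too weak to be called.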

Other observations

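The ribosomal protein genes RpL10, RpS3A, RpL15 and RpL21 each had more than 1 peak and RpL5 had 1, a set singled out after its values were seen. RpL10 on 3L held 4 summits in 2282 bp. The one 1 bp from its start had a signal of 160, at rank 7025 in replicate 1 and 3865 in replicate 2, and the one 232 bp inside had 155, at rank 3417 in replicate 1 with no replicate 2 summit within 100 bp. RpS3A on chromosome 4 held 3 summits in 1983 bp, with signals of 89.9, 80.7 and 70.0, beside the promoter peak of 153 outside the gene. At RpL15, 4 summits lay within the gene or 500 bp of it. RpL21 had start-site peaks with signals of 104 and 66.3, and RpL5 had a single exon peak with 65.6. Peaks overlapped each other at RpL10 (160 and 155), RpS3A (89.9 and 80.7), RpL15 (128 and 108) and RpL21 (104 and 66.3). Counts of peaks are thus not counts of separate sites, and how many other genes had more than 1 peak is not given here. RpL10 alone of these 5 genes had an IDR peak, at its start. Of all protein-coding genes 19.3% had an IDR summit at a start, so 1 of these 5 is near the general share.

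On X, fog, which encodes the ligand that drives apical constriction in gastrulation, held 6 of the 38 member summits. Its own start peak had a signal of 67.5, found in replicate 1 at rank 20947 and with no replicate 2 summit within 100 bp, while the site upstream of mir-2491 in the same gene had 276.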
